A study of Mus musculus with 16 samples.

Results

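The nuclear genes for the subunits of the mitochondrial respiratory chain were followed across 4 genotype groups of mouse brain RNA-seq libraries. They were taken by gene symbol, as the Nduf genes of complex I, Sdha to Sdhd of complex II, the Uqcr genes of complex III, the Cox4 to Cox8 genes of complex IV and the Atp5 genes of ATP synthase (complex V), without pseudogenes marked -ps and with at least 10 counts in at least 4 of the 16 libraries. Of 54532 entries in the table, 97 matched these names, 8 of them were marked -ps, 6 more had too few counts, and 83 remained. These were 38 genes of complex I, 4 of complex II, 8 of complex III, 16 of complex IV and 17 of complex V. By name, Ndufa4, now placed in complex IV, is counted here with complex I, and Atp5s, a factor bound to ATP synthase, with complex V. Just inside the count limit lay Cox8b (7 libraries at 10 counts or more), Cox4i2 and Ndufb4c (15 libraries each). Just outside lay Cox7b2 (2 libraries), Cox6c2 and Ndufs6b (1 library each), while Ndufa11b, Cox8c and a second entry named Atp5o had 10 counts in 0 libraries. Ndufb1-ps passed the count limit in all 16 libraries and was left out by its name alone. All 83 genes passed the filter on low counts.

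The respiratory chain sits in the inner mitochondrial membrane. Complexes I and II pass electrons from NADH and succinate to ubiquinone, complex III passes them on to cytochrome c and complex IV to oxygen, and complexes I, III and IV pump protons whose return through ATP synthase drives ATP production. A small core of each pump is encoded by the mitochondrial genome, and the catalytic and accessory subunits studied here are encoded in the nucleus, made in the cytosol and imported. Neurons depend on this pathway for most of their ATP.

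Mice with Ch25h (Ch25h+/+) or without it (Ch25h-/-) were each sampled as Tau- and as Tau+, which gave 4 groups of 4 libraries, all from females of 9 months. Ch25h encodes cholesterol 25-hydroxylase, which makes an oxysterol, and -/- is read as its loss. Tau+ is read as carrying a tau transgene, whose line, mutation and promoter the labels do not give. The labels of every sample name frontal cortex and the text of the series names hippocampus. Summed markers of cortex were at 641 to 866 CPM (CPM, counts scaled to library size with TMM factors) and those of hippocampus at 182 to 355 CPM in the 16 libraries. The series title links innate immune signalling and CH25H to tau pathology, and the comparisons here ask how subunit genes differ with tau and with Ch25h loss. Nothing in the labels ties libraries to animals, so p-values measure the spread between libraries. In bulk tissue, fewer cells of a type and less RNA per cell cannot be told apart.

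Depth was 15530352 to 25602500 counts per library, and the 83 genes took 0.720 to 1.12% of the counts. Ch25h had 0 CPM in all 8 Ch25h-/- libraries and 0.216 to 1.26 CPM in Ch25h+/+, and Prnp was at 708 to 839 CPM in Tau- and 1414 to 1935 CPM in Tau+. Replicate numbers below only name libraries. Neuron markers summed to 5885 to 7648 CPM, and 0 of the 8 passed the edgeR test in any comparison (at most 2 had an unadjusted p under 0.05; DESeq2 and limma-voom each called 1 for Ch25h loss in Tau-, and limma-voom 1 in Tau+). In those DESeq2 and limma-voom fits 7.16 to 10.6% of all genes were called. Of 5 microglia markers, 4 rose with tau in Ch25h+/+ (1.47% of all genes rose) and 4 fell with Ch25h loss in Tau+ (2.40% of all genes fell), C1qa, Csf1r and Cx3cr1 among them. The remaining marker had a log2 fold change of 0.23 for Ch25h loss in Tau+.

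Libraries also differed in ways that follow the groups or single out 1 library. The entry CT010467.1, annotated as ribosomal RNA, was at 2289 to 5684 CPM of total counts in 7 of the 8 Ch25h-/- libraries, which are called rRNA-rich here, and at 111 to 475 in the other 9. The only Ch25h-/- library among these 9 was Tau+ replicate 1, at 153.5, which is called the rRNA-poor Ch25h-/- library below. Library class and Ch25h loss cannot be told apart in Tau-, and in Tau+ they are parted by 1 library. Across 12003 genes at 5 CPM or more, the deviation of a library from the mean of all libraries correlated with GC content at a Spearman rho of -0.55 to -0.36 in the rRNA-rich libraries and 0.06 to 0.53 in the others. By transcript length it was Ch25h+/+ Tau+ replicate 1 that stood apart, with a rho of -0.66 against -0.33 to 0.42 in the other 15 libraries.

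Subunit genes are short, with a median transcript of 809 bases (360 to 4715) against 2802 bases over all genes with a length. In Ch25h+/+ Tau+ replicate 1 they were high almost as a block: 78 of 83 (94.0%) were above the other 3 libraries of the group, against 35.6% of all genes tested, and 69 (83.1%) were above all other 15 libraries, against 18.8%. The 77 subunit genes at 5 CPM or more were a median of 0.49 log2 higher there than in the mean of the other 3, while the 12003 genes had a median of 0.01. Across those genes this difference fell with transcript length (Spearman rho -0.65 over all, -0.48 over the subunits, both across genes of 1 library). The mean level of the 83 genes, as log2(CPM + 0.5), was 6.17 in this library and 5.51 to 5.90 in the other 15. The part of RNA quality or library preparation in this was not tested.

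**Figure D1:**
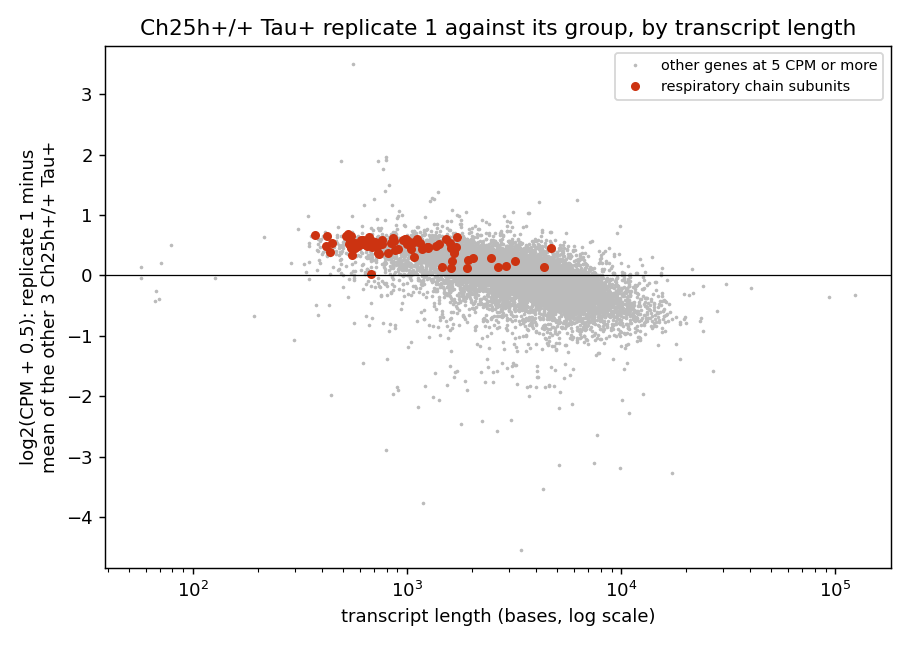
Each point is a gene at 5 CPM or more, with its transcript length in bases on a log scale and, on the vertical axis, log2(CPM + 0.5) in Ch25h+/+ Tau+ replicate 1 minus the mean of the other 3 libraries of its group. The 77 subunit genes (red) lie at the short end and around a median of 0.49, above most of the other genes (grey).

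The promoters of 5 of the 6 genes that fell with Ch25h loss (below) are shown, because these genes fell and because respiratory genes are known for binding sites of NRF1 and of ETS family factors near their start. They run from 120 bases before to 30 bases after the RefSeq start on GRCm38.p6, 5′ to 3′ along the gene, all on the minus strand. Capitals mark matches to the letters searched.
Uqcr11: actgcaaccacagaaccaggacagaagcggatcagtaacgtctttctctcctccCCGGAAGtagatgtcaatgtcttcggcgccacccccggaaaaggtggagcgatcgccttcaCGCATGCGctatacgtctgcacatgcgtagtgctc
Atp5k: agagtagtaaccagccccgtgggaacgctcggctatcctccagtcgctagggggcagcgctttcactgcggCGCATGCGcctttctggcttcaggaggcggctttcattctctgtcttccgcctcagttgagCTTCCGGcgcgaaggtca
Atp5g3: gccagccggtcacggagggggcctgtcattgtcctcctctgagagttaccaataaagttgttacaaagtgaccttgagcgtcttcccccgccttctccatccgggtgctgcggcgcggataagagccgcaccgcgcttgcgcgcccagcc
Ndufa1: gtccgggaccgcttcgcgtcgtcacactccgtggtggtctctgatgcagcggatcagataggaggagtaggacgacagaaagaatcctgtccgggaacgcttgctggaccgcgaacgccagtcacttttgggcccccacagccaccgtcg
Ndufs6: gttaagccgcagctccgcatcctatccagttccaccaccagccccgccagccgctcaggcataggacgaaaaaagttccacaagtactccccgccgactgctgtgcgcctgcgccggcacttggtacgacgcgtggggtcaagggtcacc
The windows lie at chr10:80406792-80406941 (Uqcr11), chr5:108434370-108434519 (Atp5k), chr2:73911297-73911446 (Atp5g3), chrX:37191209-37191358 (Ndufa1) and chr13:73328453-73328602 (Ndufs6). Those of Uqcr11 and Atp5k each hold an NRF1 match (CGCATGCG) and an ETS match, which is CCGGAAG in Uqcr11 and the other strand of the same letters, CTTCCGG, in Atp5k. The stretches of Atp5g3, Ndufa1 and Ndufs6 have none of the letters searched, and Ndufs6 has YY1 letters just past the end of the stretch shown.

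RefSeq windows of 250 bases before to 50 after the start were used for 65 of the 83 genes and for 12354 of the genes tested, and both strands were searched. Chromosome 18 was left out of both counts. NRF1 letters were in 9 subunit promoters (13.8%, against 3.78% of the genes tested), and YY1 letters (AAGATGGCG) in 7 (10.8% against 3.02%). ETS letters were in 16 (24.6% against 17.3%) and TATA letters (TATAAA) in 6 (9.23% against 9.17%). None of the 4 sets of letters contains another, and a match describes letters, not a binding site.

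Levels between genes are compared per kb of transcript, in Ch25h+/+ Tau-. The highest were Cox8a (573 CPM per kb), Atp5b (555), Cox6a1 (540), Cox4i1 (495) and Atp5a1 (339), which are nuclear subunits of complex IV and the alpha and beta subunits of ATP synthase. The lowest were Cox8b (1.48), Ndufb4c (1.59), Cox4i2 (2.04), Cox7a1 (2.38) and Ndufa4l2 (3.38), of which 4 are isoforms known from muscle, lung or hypoxia. Summed over the 83 genes, the level was 8752 ± 201 CPM (SD, n = 4) in Ch25h+/+ Tau-, 8913 ± 1357 in Ch25h+/+ Tau+, 7739 ± 554 in Ch25h-/- Tau- and 7962 ± 191 in Ch25h-/- Tau+.

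**Figure D2:**
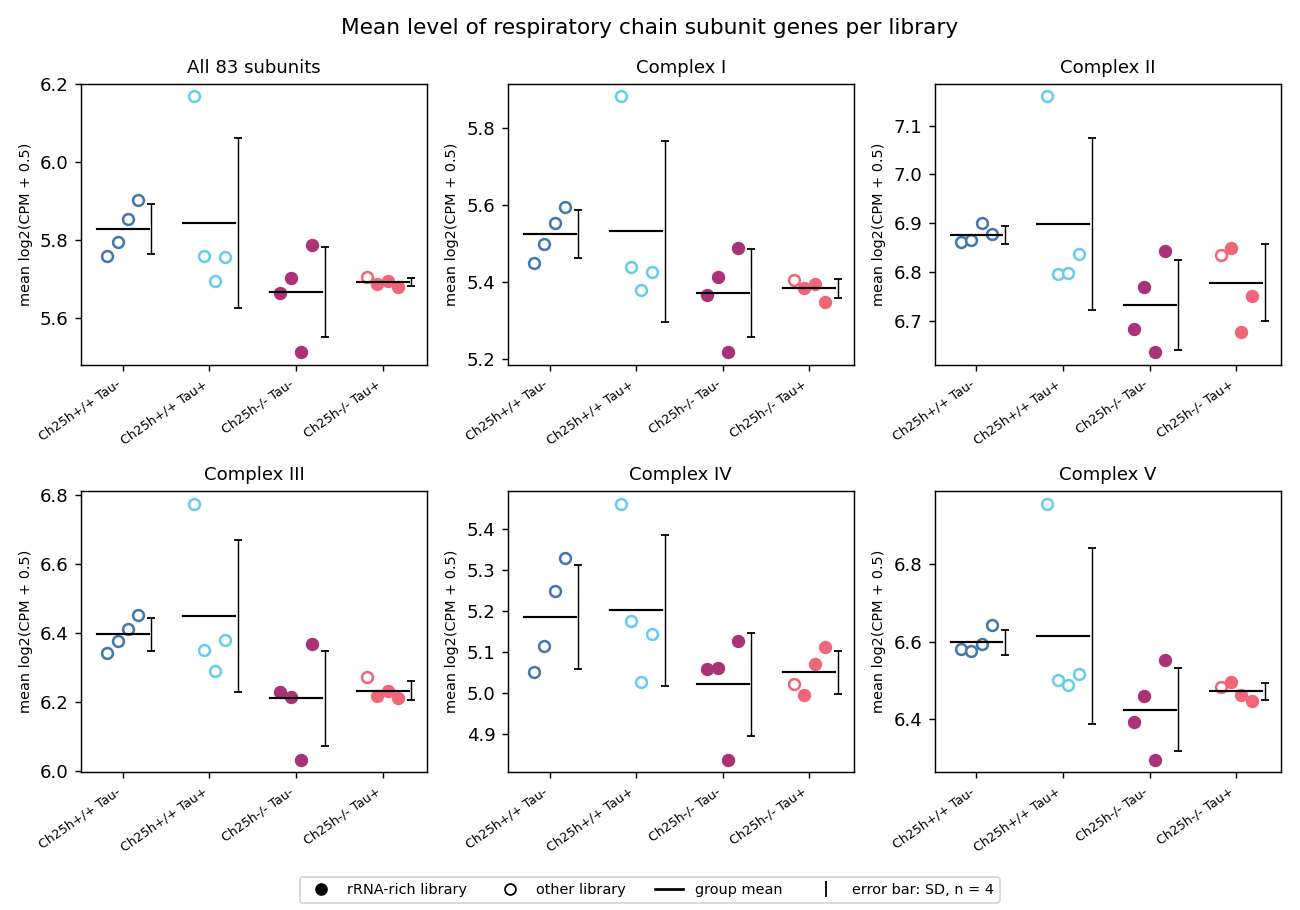
Mean log2(CPM + 0.5) of all 83 subunit genes and of each complex in the 16 libraries, by group, with filled points for rRNA-rich libraries, lines for group means and bars for the SD (n = 4). Over all genes the group means are 5.83, 5.84, 5.67 and 5.69, and the highest point of every panel is Ch25h+/+ Tau+ replicate 1.

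Ch25h loss went with lower levels of a few small subunits. By the edgeR test, 5 of 83 genes fell in Tau- (6.02%, where 0.812% of all 17736 genes tested fell) and 0 rose (0.214% of all genes). In Tau+, 5 fell by the same test (6.02%, against 2.40%) and 0 rose (1.14% of all genes). Uqcr11, Ndufa2, Ndufs6 and Atp5g3 fell in both, Atp5k in Tau- alone and Ndufa1 in Tau+ alone, and these last differences between tau states did not pass the interaction test. These 6 genes code for accessory subunits of complexes I and III and for parts of the membrane sector of ATP synthase, and 77 genes passed the edgeR test in neither comparison. Other tools called more, in the set and over all genes. DESeq2 called 11 and 12 of the 83, all lower (7.16 and 9.79% of all genes were called). Limma-voom called 19 and 13, of which 2 and 4 were higher (7.83 and 10.6% of all genes were called).

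Beyond the calls, the set leaned one way. The log2 fold change was negative for 66 of 83 genes in Tau- and for 67 in Tau+, with medians of -0.17 in each, where the medians over all genes tested were 0.01 and 0.00. An unadjusted p under 0.05 was reached by 35 and 32 of the 83 (42.2 and 38.6%), against 20.9 and 23.9% of all genes. All 4 Ch25h-/- Tau- libraries lay below all 4 Ch25h+/+ Tau- libraries in 26 subunit genes (31.3%, against 8.58% of all genes), and 11 did so in Tau+ (13.3%, against 5.74%). The Tau- and Tau+ comparisons share no library, but both set mostly rRNA-rich against rRNA-poor libraries. Markers of oligodendrocytes, the myelin-forming cells, leaned the same way: all 5 had negative log2 fold changes in both tau states (medians -0.31 and -0.35), although 0 passed the edgeR test and 2 and 3 had an unadjusted p under 0.05. DESeq2 called 0 of them, and limma-voom 0 in Tau- and 3 in Tau+, where it called 6.01% of all genes lower. In Tau- their summed level ranged over 2292 to 3148 CPM in the 4 libraries with Ch25h and over 1753 to 2815 CPM in the 4 without it. In Tau+ the ranges were 2398 to 4327 CPM with the gene and 2210 to 3307 CPM without it. The groups overlap in both tau states, and the part of these cells in the result was not tested.

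These calls were lost under several alternatives. 1 of them, a covariate for library class, rests on 1 library, Ch25h-/- Tau+ replicate 1, since only its group holds both classes. In Tau- its value is thus carried over from Tau+, and the fit cannot part class from Ch25h loss there. With a covariate for library class 0 of the 83 passed in either tau status, with medians of -0.12 in Tau- and -0.16 in Tau+, and with counts corrected per library for their trend over GC content 0 passed, with medians of -0.13 in both. Few other genes passed there: over all genes 0% (Tau-) and 0.0564% (Tau+) were called with the covariate and 0.0789% and 1.09% with GC correction, where 1.03% and 3.55% were called without them. The genes that had fallen kept a negative sign. With the covariate their log2 fold changes in Tau- were -0.11 for Atp5k and Ndufs6, -0.19 for Ndufa2, -0.20 for Atp5g3 and -0.23 for Uqcr11. In Tau+ they were -0.19 for Atp5g3, -0.20 for Ndufs6, -0.27 for Ndufa1, -0.29 for Ndufa2 and -0.33 for Uqcr11. With GC correction the same genes stood at -0.82 (Atp5k) to -0.42 (Uqcr11) in Tau- and at -0.61 (Ndufa1) to -0.41 (Uqcr11 and Atp5g3) in Tau+. Leaving out Ch25h+/+ Tau+ replicate 1 gave 20 calls in Tau- (24.1%, against 7.25% of all genes in the same fit) and 0 in Tau+ (against 1.49%), where the median went to -0.07. Leaving out Ch25h-/- Tau+ replicate 1 gave 9 calls in Tau- (10.8%, against 2.78%) and 15 in Tau+ (18.1%, against 9.42%). Leaving out both gave 25 (30.1%, against 10.2%) and 13 (15.7%, against 7.07%). These shares count both directions, and of the calls 1, 1, 2, 3 and 3, in the order given, were for higher levels, Ndufb4c or Cox6c among them each time. Leaving out any 1 of 10 libraries ended all calls in Tau-, and any 1 of 5 (Ch25h+/+ Tau+ replicates 1 and 4 and Ch25h-/- Tau+ replicates 2, 3 and 4) ended them in Tau+. The 10 in Tau- were the 4 Ch25h+/+ Tau- libraries, Ch25h+/+ Tau+ replicate 4, Ch25h-/- Tau- replicates 1, 2 and 3, and Ch25h-/- Tau+ replicates 3 and 4. Calls became fewer over all genes too: 0.0167 to 0.416% were called in these 10 fits and 0.602 to 1.49% in the 5 for Tau+.

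**Figure D3:**
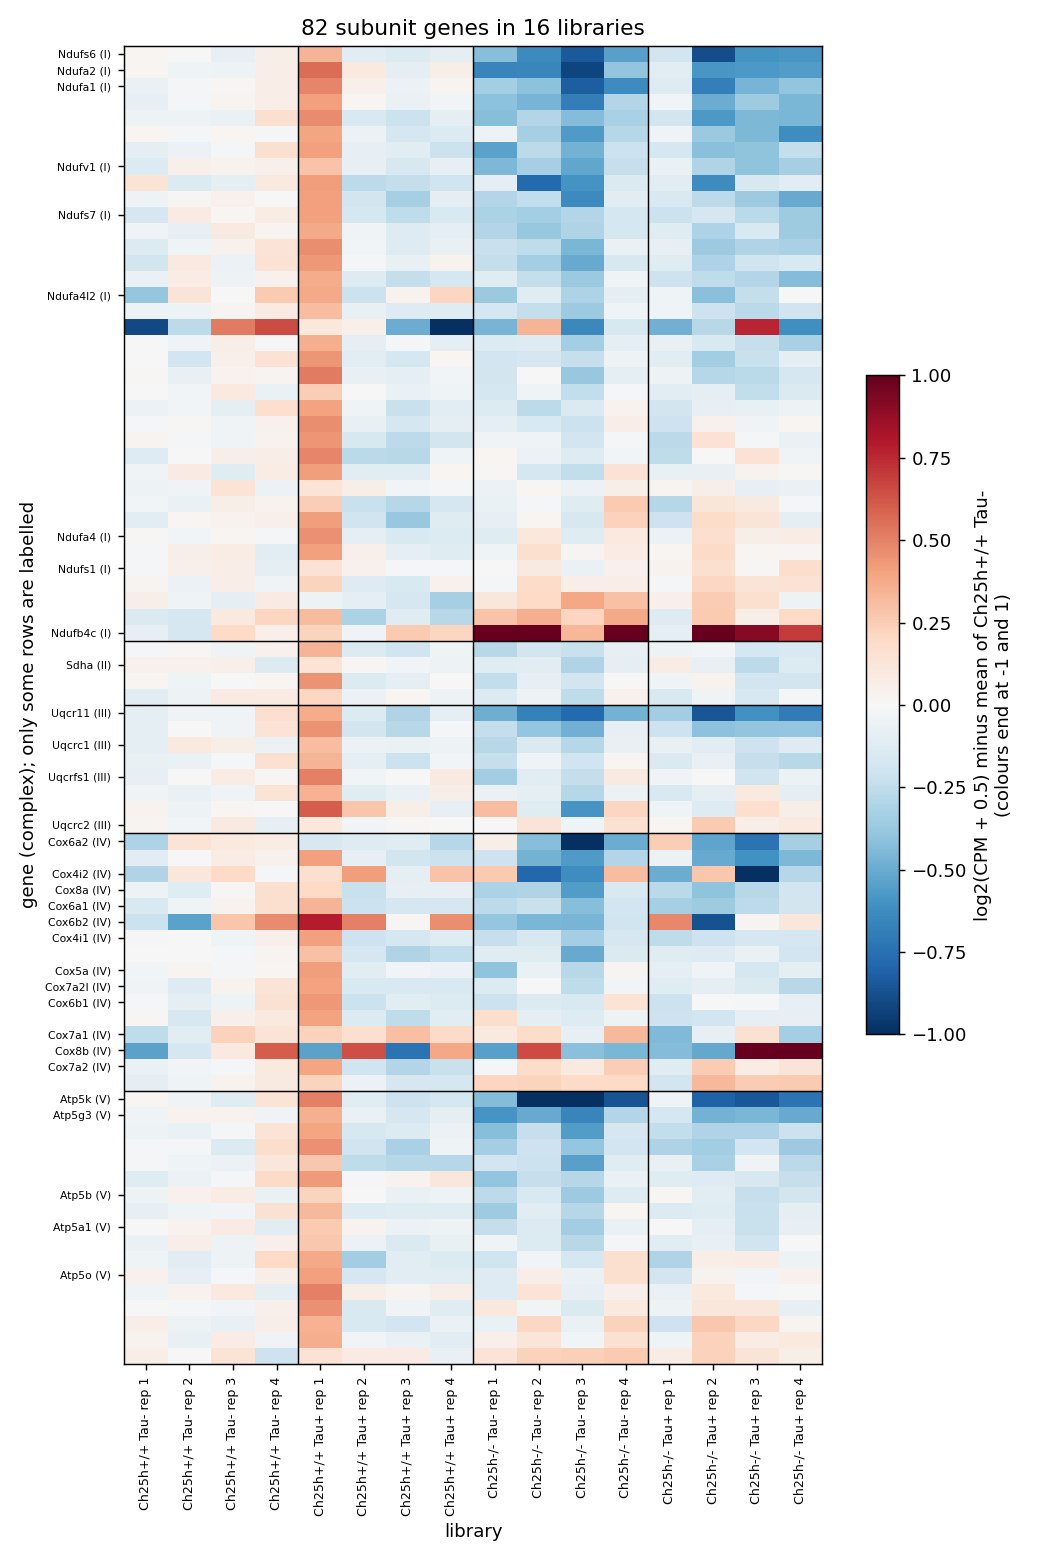
Heat map of 82 subunit genes (rows, some labelled, grouped by complex and ordered within it by their mean in Ch25h-/-) in the 16 libraries (columns), coloured by log2(CPM + 0.5) minus the mean of Ch25h+/+ Tau-. The column of Ch25h+/+ Tau+ replicate 1 is red for most genes, and deep blue runs through most Ch25h-/- columns for Ndufs6, Ndufa2, Ndufa1, Uqcr11 and Atp5k.

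In complex I, Ndufa2 and Ndufs6, accessory subunits of the arm that oxidises NADH, fell in both tau states. Ndufa2 was at 45.3, 43.5, 43.2 and 46.9 CPM in Ch25h+/+ Tau-, at 66.2, 47.9, 42.0 and 46.5 in Ch25h+/+ Tau+, at 28.1, 28.3, 23.4 and 34.0 in Ch25h-/- Tau-, and at 41.3, 29.8, 29.8 and 30.2 in Ch25h-/- Tau+. The Ch25h-/- libraries lay below the Ch25h+/+ libraries of the same tau status without overlap, and the highest Ch25h-/- value was that of the rRNA-poor library. The log2 fold change was -0.65 ± 0.14 (SE; edgeR adjusted p = 0.0376) in Tau- and -0.62 ± 0.14 (edgeR adjusted p = 0.0253) in Tau+. Ndufa2 lies on chromosome 18 (36742332 to 36744557), where 66 of its 572 exon bases lie under the antisense gene Tmco6, and reads of the 2 genes may mix because the use of strand is not stated.

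Ndufs6, which binds zinc, was at 29.9, 29.6, 27.9 and 30.8 CPM in Ch25h+/+ Tau-, at 37.6, 27.4, 26.8 and 27.8 in Ch25h+/+ Tau+, at 21.9, 18.9, 16.3 and 20.1 in Ch25h-/- Tau-, and at 26.0, 15.8, 19.4 and 19.6 in Ch25h-/- Tau+. Groups did not overlap in either tau status. The log2 fold change was -0.62 ± 0.14 (SE; edgeR adjusted p = 0.0462) in Tau- and -0.56 ± 0.14 (edgeR adjusted p = 0.0352) in Tau+. Of its 898 exon bases, 30 lie under the antisense gene Mrpl36 (chr13:73319838-73328542).

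Ndufa1, a small membrane subunit encoded on the X chromosome, was at 23.7, 24.7, 25.1 and 26.1 CPM in Ch25h+/+ Tau-, at 35.1, 25.8, 23.9 and 25.4 in Ch25h+/+ Tau+, at 19.6, 18.6, 13.9 and 15.9 in Ch25h-/- Tau-, and at 22.8, 15.3, 17.9 and 18.9 in Ch25h-/- Tau+. It fell in Tau+ by a log2 fold change of -0.55 ± 0.14 (SE; edgeR adjusted p = 0.0352). In Tau- the value was also -0.55 ± 0.14, with no overlap, and the edgeR adjusted p was 0.0577.

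In complex III the gene that fell was Uqcr11, a small accessory subunit at the edge of the cytochrome bc1 dimer. It was at 54.1, 56.1, 56.2 and 64.8 CPM in Ch25h+/+ Tau-, at 74.5, 52.5, 46.7 and 54.2 in Ch25h+/+ Tau+, at 41.0, 35.9, 33.4 and 41.4 in Ch25h-/- Tau-, and at 45.3, 31.6, 37.7 and 35.3 in Ch25h-/- Tau+. Neither pair of groups overlapped, and the rRNA-poor Ch25h-/- library, at 45.3 CPM, also lay below all 8 Ch25h+/+ libraries. The log2 fold change was -0.61 ± 0.13 (SE; edgeR adjusted p = 0.0382) in Tau- and -0.60 ± 0.13 (edgeR adjusted p = 0.0226) in Tau+.

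In complex V, Atp5g3, which encodes subunit c of the membrane ring through which protons pass, was at 170, 178, 178 and 170 CPM in Ch25h+/+ Tau-, at 223, 166, 154 and 164 in Ch25h+/+ Tau+, at 115, 122, 110 and 141 in Ch25h-/- Tau-, and at 154, 125, 127 and 123 in Ch25h-/- Tau+. It fell by a log2 fold change of -0.51 ± 0.11 (SE; edgeR adjusted p = 0.0376) in Tau- with no overlap, and of -0.42 ± 0.11 (edgeR adjusted p = 0.0416) in Tau+, where the rRNA-poor library reached the lowest Ch25h+/+ library. Atp5g1 (-0.18 and -0.14) and Atp5g2 (-0.25 and -0.31), whose products mature to the same protein, did not pass the edgeR test.

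Atp5k, for subunit e in the part of ATP synthase where the enzyme pairs up, had the largest negative fold change of the set in Tau-. It was at 23.2, 22.4, 21.1 and 25.2 CPM in Ch25h+/+ Tau-, at 32.6, 21.3, 19.8 and 20.3 in Ch25h+/+ Tau+, at 16.8, 10.2, 10.2 and 12.4 in Ch25h-/- Tau-, and at 22.3, 12.9, 12.5 and 13.6 in Ch25h-/- Tau+. In Tau- it fell by a log2 fold change of -0.89 ± 0.20 (SE; edgeR adjusted p = 0.0476). In Tau+ the value was -0.60 ± 0.20 and did not pass (edgeR adjusted p = 0.0854), with the rRNA-poor library inside the range of Ch25h+/+.

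**Figure D4:**
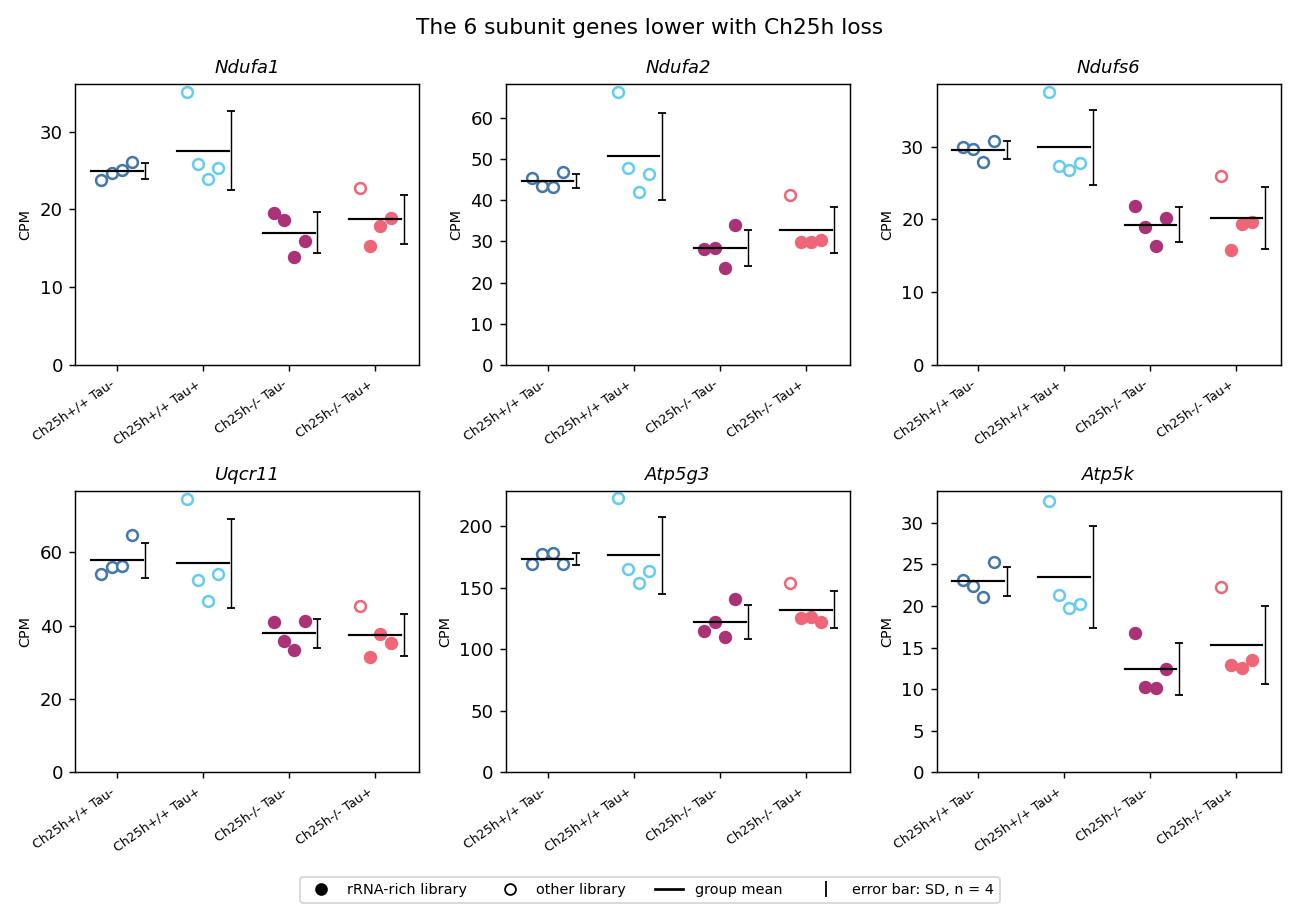
CPM of the 6 genes past the test for Ch25h loss in at least 1 tau status, for each of the 16 libraries by group, with filled points for rRNA-rich libraries, lines for group means and bars for the SD (n = 4). In Ch25h-/- Tau+ the open point, replicate 1, is the highest of its group in every panel, for example 41.3 CPM for Ndufa2 against 29.8 to 30.2 in the other 3.

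The rRNA-poor Ch25h-/- library differed from the 7 rRNA-rich ones at these genes. Against the mean of the 8 Ch25h+/+ libraries, it differed by log2 values of -0.04 (Atp5k), -0.17 (Atp5g3), -0.18 (Ndufs6), -0.19 (Ndufa1 and Ndufa2) and -0.33 (Uqcr11). The 7 rRNA-rich libraries had means of -0.85, -0.50, -0.64, -0.60, -0.70 and -0.64 for the same genes. In 14 of 83 genes (16.9%, against 3.09% of all genes tested) all 7 rRNA-rich libraries lay below all 8 Ch25h+/+ libraries, and in 9 of these 14 (64.3%) the rRNA-poor library reached or passed the lowest Ch25h+/+ library, a share near the 67.9% over all genes of that kind (372 of 548). Over the whole set, however, its median was -0.13, with 75 of 83 genes below the Ch25h+/+ mean, beside -0.16 and 63 of 83 for the rRNA-rich libraries. Over all 17736 genes tested the medians were 0.01 and 0.00, with 8517 and 8805 genes below. Against the mean of the 7 Ch25h+/+ libraries without Tau+ replicate 1, the median of the subunits was -0.08 with 65 of 83 below in the rRNA-poor library and -0.12 with 60 below in the rRNA-rich ones. The mean level of the 83 genes in the rRNA-poor library, 5.70, lay inside the 5.69 to 5.76 of the other 3 Ch25h+/+ Tau+ libraries.

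Fold changes were also set beside transcript length. The 6 genes that fell have transcripts of 371 to 723 bases (median 506.5). Their GC content of 47.5 to 58.9% (median 52.8%) spans most of the range of the set (40.2 to 60.4%, median 51.6%). In the 21 subunit genes of up to 600 bases the median log2 fold change for Ch25h loss was -0.28 in Tau- and -0.22 in Tau+, against -0.06 in each for the 673 other genes of that length. In the 30 of 600 to 1000 bases it was -0.21 and -0.22, against -0.05 and -0.10 for 1132 other genes. In the 32 subunit genes of 1000 to 10000 bases it was -0.14 and -0.13, against 0.01 in each for 15360 other genes. In Tau+ the shortest and the middle class thus had the same median in the subunits, and among other genes the middle class was the lowest. The same correction for transcript length gave 9 calls in Tau- (10.8%, against 1.67% of all genes) and 4 in Tau+ (4.82%, against 2.38%), with medians of -0.14 and -0.10. Of the 9 calls in Tau-, 1 was for a higher level.

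Among the 83, the catalytic and core subunits of complexes I, II, III and V described next did not pass the edgeR test for Ch25h loss. Neither did the nuclear subunits of complex IV described with them. In complex I, Ndufv1, which holds the NADH site, was at 172 ± 10.4 CPM in Ch25h+/+ Tau-, 172 ± 25.6 in Ch25h+/+ Tau+, 132 ± 11.7 in Ch25h-/- Tau- and 143 ± 14.9 in Ch25h-/- Tau+ (SD, n = 4). Its log2 fold changes of -0.38 ± 0.10 and -0.27 ± 0.10 (SE) had edgeR adjusted p-values of 0.0617 (Tau-) and 0.110 (Tau+). Ndufs7, at the ubiquinone site, had -0.29 in Tau- and -0.23 in Tau+. Ndufs1, the large iron-sulphur subunit, was at 114 ± 5.92, 117 ± 6.15, 115 ± 5.24 and 122 ± 7.16 CPM (SD, n = 4) in the order of the groups above, with fold changes of 0.02 ± 0.07 and 0.06 ± 0.07.

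In complex II, Sdha, the flavoprotein that oxidises succinate, was at 386 ± 23.5, 390 ± 23.3, 346 ± 22.4 and 360.5 ± 34.8 CPM (SD, n = 4) in the same order, and its fold changes were -0.16 ± 0.08 and -0.11 ± 0.08 (SE). All 4 genes of this complex had negative values in both tau states, from -0.19 to -0.10, and 0 of 4 passed. In complex III the core subunit Uqcrc1 had -0.19 and -0.17 and the Rieske iron-sulphur protein Uqcrfs1 -0.14 and -0.23, while the other core subunit, Uqcrc2, had 0.06 and 0.09.

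Complex IV had 0 of 16 genes past the edgeR test in either tau status, with medians of -0.20 and -0.17 and with 4 (Tau-) and 5 (Tau+) at an unadjusted p under 0.05, against 20.9 and 23.9% of all genes. DESeq2 called 1 of the 16 lower in each tau status, against 4.91 (Tau-) and 5.81% (Tau+) of all genes. Limma-voom called 2 lower in Tau- (12.5%, against 5.27% of all genes) and 1 lower in Tau+ (6.25%, against 6.01%). In Tau+ limma-voom also called 2 of the complex higher, where 817 of 17736 genes were called higher. Cox4i1, its main subunit 4, was at 378 ± 10.1, 379 ± 83.9, 324 ± 18.6 and 329.5 ± 8.73 CPM (SD, n = 4), and its fold changes were -0.22 ± 0.10 and -0.20 ± 0.10 (SE). Cox5a had -0.17 in both. Cox5b, which binds zinc, had -0.38 and -0.39, with edgeR adjusted p of 0.121 and 0.0936. In complex V the beta subunit Atp5b, which makes ATP, was at 1063 ± 51.6, 1084 ± 105, 909 ± 66.1 and 972 ± 71.7 CPM (SD, n = 4), with -0.23 ± 0.08 and -0.16 ± 0.08 (SE), and the alpha subunit Atp5a1 had -0.20 and -0.15.

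Not every member leaned down. Cox6c, a small subunit of complex IV, was at 122, 127, 134 and 139 CPM in Ch25h+/+ Tau-, at 152, 125, 116 and 115 in Ch25h+/+ Tau+, at 151, 152, 149 and 150 in Ch25h-/- Tau-, and at 115, 163, 155 and 156 in Ch25h-/- Tau+. Its values were 0.21 in both tau states with edgeR adjusted p of 0.249 and 0.203; it was chosen after its values were seen. In Tau+ it was called higher by limma-voom (0.35, adjusted p = 0.0139), by edgeR without Ch25h-/- Tau+ replicate 1 (0.30, adjusted p = 0.0349) and by edgeR without both libraries that stand apart (0.40, adjusted p = 0.00242). Ndufb4c, a single-exon entry close in name to Ndufb4, had the highest positive fold changes, 1.73 ± 0.42 (SE; edgeR adjusted p = 0.0543) in Tau- and 0.98 ± 0.42 (edgeR adjusted p = 0.164) in Tau+. In Tau- limma-voom called Ndufb4c higher (adjusted p = 0.0271), as did several edgeR alternatives (adjusted p 0.0101 to 0.0434). In Tau+ edgeR called it higher without Ch25h-/- Tau+ replicate 1 (adjusted p = 0.0421). It was at 0.492 to 0.837 CPM in the 8 Ch25h+/+ libraries, at 0.548 in the rRNA-poor Ch25h-/- library and at 0.904 to 3.29 in the 7 rRNA-rich ones. It was the only 1 of the 83 genes in which all rRNA-rich libraries lay above all Ch25h+/+ libraries (against 2.46% of all genes tested). Its reads may be shared with near-identical copies, so its level is uncertain.

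Tau status went with no called change in either genotype. In Ch25h+/+, 0 of 83 genes passed, against 1.56% of all genes, and 0 had an unadjusted p under 0.05 with edgeR, against 9.38% of all genes. DESeq2 also called 0, and limma-voom called 0 with 4 at an unadjusted p under 0.05 (4.82%, against 14.5% of all genes). The log2 fold change was positive for 59 of 83 with a median of 0.02 (all genes -0.01), but without Ch25h+/+ Tau+ replicate 1 it was positive for 15 with a median of -0.10. Voom, which gives less weight to variable libraries, had 18 positive and a median of -0.07, and with GC-corrected and length-corrected offsets the medians were -0.01 each. The smallest unadjusted edgeR p was that of Atp5f1, subunit b of the stator stalk, at 0.17 ± 0.10 (SE; edgeR adjusted p = 0.653).

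In Ch25h-/-, 0 of 83 passed for tau, against 0.0395% of all genes, and 0 had an unadjusted p under 0.05 with edgeR, DESeq2 or voom, against 3.68, 3.54 and 4.69% of all genes. The log2 fold change was positive for 54 with a median of 0.03. The standard errors, with a median of 0.11 in each genotype, set the size of a tau difference that could be seen. For Ndufa2 the tau difference was 0.18 (95% interval -0.09 to 0.45) in Ch25h+/+ and 0.21 (-0.07 to 0.48) in Ch25h-/-. For Uqcr11 it was -0.02 (-0.28 to 0.23) and -0.01 (-0.27 to 0.25). Intervals are the fold change ± 1.96 standard errors and are approximate, somewhat narrower than the F test would give. Cox6c for Ch25h loss in Tau-, for example, had an unadjusted edgeR p of 0.0540 with an interval of 0.01 to 0.40. The tau comparison within a genotype and the Ch25h comparison within a tau status share a group of libraries, and the values are therefore only set side by side.

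The interaction, the tau difference in Ch25h-/- minus that in Ch25h+/+, passed for 0 of 83 genes, against 0.0338% of all genes. With edgeR 0 had an unadjusted p under 0.05, with DESeq2 0 and with voom 3 (3.61%), against 4.13, 4.07 and 6.69% of all genes. The median was 0.01 and became 0.12, with 75 of 83 positive, without Ch25h+/+ Tau+ replicate 1. For the 6 genes that fell, the interaction was 0.00 (95% interval -0.36 to 0.36) for Ndufa1, 0.01 (-0.36 to 0.37) for Uqcr11, 0.03 (-0.35 to 0.41) for Ndufa2, 0.06 (-0.32 to 0.44) for Ndufs6, 0.09 (-0.20 to 0.39) for Atp5g3 and 0.28 (-0.27 to 0.83) for Atp5k. The smallest unadjusted p was that of Cox7a1, at -0.78 ± 0.38 (SE; edgeR adjusted p = 1).

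Several complex I and IV subunits have a second gene used in particular tissues, and the ubiquitous gene gave nearly all of the signal in each pair. As a share of the pair per kb of transcript, over the 16 libraries, Cox4i2 (known from lung and low oxygen) was at 0.124 to 0.679%, Cox6a2 (heart and muscle) at 1.05 to 2.65% and Cox6b2 (testis) at 1.13 to 4.20%. Cox7a1 (heart and muscle) was at 1.28 to 3.36%, Cox8b (heart and muscle) at 0.0479 to 1.19%, and Ndufa4l2 (induced by low oxygen) at 1.11 to 2.26%. By CPM the groups overlapped in every comparison for these 6 genes, with the exception of Cox7a1 for Ch25h loss in Tau+. There it was at 1.17, 1.09, 1.25 and 1.12 CPM in Ch25h+/+ and at 0.548, 0.845, 1.08 and 0.625 in Ch25h-/- (fold change -0.59 ± 0.27, edgeR adjusted p = 0.193). The 5 skeletal and heart muscle markers, of which 2 passed the filter on low counts, summed to 16.2 to 32.0 CPM.

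Cox8b varied most within groups, and it did so together with markers of the choroid plexus, the secretory epithelium of the ventricles. This was noticed after the values were seen. The 7 libraries in which 5 choroid plexus markers summed to 1121 to 2727 CPM had Cox8b at 0.561 to 2.05 CPM (13 to 36 counts). The 9 libraries with sums of 14.8 to 289 CPM had it at 0.0930 to 0.383 CPM (2 to 7 counts). Both kinds of library occurred in every group, and the part of the choroid plexus in the level of Cox8b was not tested.

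**Figure D5:**
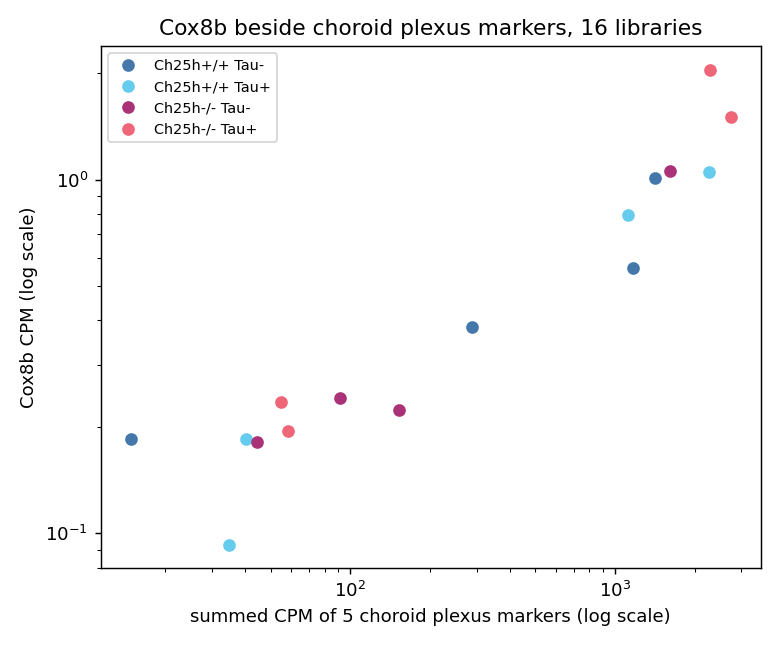
Cox8b in CPM against the summed CPM of 5 choroid plexus markers in the 16 libraries, both on log scales, coloured by group. Libraries with sums of 1121 CPM or more lie at 0.561 CPM of Cox8b or more, and each group has points on both sides.

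Ndufa12, an accessory subunit of complex I, also varied widely within groups and was chosen after its values were seen. It was at 15.02, 23.6, 40.9 and 44.9 CPM in Ch25h+/+ Tau-, at 30.6, 29.4, 20.1 and 13.7 in Ch25h+/+ Tau+, at 20.5, 36.2, 18.1 and 25.5 in Ch25h-/- Tau-, and at 20.3, 23.5, 48.8 and 18.5 in Ch25h-/- Tau+. All groups overlapped, and no exon base of it lies under another annotated gene.

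Other genes of the pathway were counted in the same fit. No gene of the lists below passed for tau in either genotype or for the interaction. Of 7 tested subunits and partners outside the name rule, Cyc1, the cytochrome c1 of complex III, fell in Tau-, from 167 ± 3.14 to 132 ± 12.8 CPM (SD, n = 4; log2 -0.34 ± 0.08 SE, edgeR adjusted p = 0.0497). Of 48 assembly factors, 0 passed in Tau- and 1 in Tau+ (2.08%, near the 2.40% of all genes that fell), where Cox11, a copper chaperone of complex IV, fell from 10.3 ± 0.660 to 6.67 ± 1.67 CPM (SD, n = 4; log2 -0.62 ± 0.16 SE, edgeR adjusted p = 0.0382). Of 16 genes of the tricarboxylic acid cycle and pyruvate dehydrogenase 0 passed, with medians of -0.05 and -0.04. Of 10 mitochondrial carriers and outer membrane genes 0 passed, with medians of -0.09 and -0.08. These lists also leaned down: 9 (Tau-) and 8 (Tau+) of the 10 carriers were negative, as were 13 and 10 of the 16 cycle genes and 31 and 27 of the 48 assembly factors. At an unadjusted edgeR p under 0.05 were 9 of the assembly factors, 1 of the cycle genes and 3 of the carriers in each tau status. Over all genes the share was 20.9% in Tau- and 23.9% in Tau+. Other tools called more, here and over all genes. In Tau- and Tau+ in turn, DESeq2 called 4 and 5 of the assembly factors. It called 0 and 0 of the cycle genes and 1 and 2 of the carriers. Limma-voom called 5 and 4, 1 and 0, and 1 and 0 of the same lists. Over all genes DESeq2 called 7.16 and 9.79% and limma-voom 7.83 and 10.6%.

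Of 16 regulators of respiratory genes, Esrra, the nuclear receptor ERR alpha that acts with PGC-1 coactivators, fell in both tau states. It went from 83.2 ± 7.03 to 53.7 ± 7.76 CPM (SD, n = 4) in Tau- (log2 -0.63 ± 0.11 SE, edgeR adjusted p = 0.0223) and from 77.5 ± 6.98 to 54.9 ± 7.15 CPM in Tau+ (log2 -0.49 ± 0.11 SE, edgeR adjusted p = 0.0210). The other 15 did not pass the edgeR test, and the median of the list was positive, at 0.10 and 0.12. Of the 16, DESeq2 called 2 lower and 1 higher in Tau- and 1 lower and 1 higher in Tau+. Limma-voom called 2 lower and 2 higher in Tau- and 1 lower in Tau+. Over all genes DESeq2 called 7.16 and 9.79% in either direction and limma-voom 7.83 and 10.6%. With the covariate for library class the values of Esrra were -0.29 and -0.24 and with GC correction -0.39 and -0.25, and neither alternative kept the calls of Esrra, Cyc1 or Cox11. For Cyc1 the values were -0.19 (covariate) and -0.22 (GC correction). For Cox11 the value was -0.22 with the covariate, while with GC correction it was -0.63, no smaller than without (edgeR adjusted p = 0.0668).

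The 13 mRNAs of the mitochondrial genome, which encode the partner subunits, lay the other way. With Ch25h loss 11 of 13 had positive log2 fold changes in each tau status (medians 0.33 and 0.43). By edgeR mt-Nd3 and mt-Nd4, complex I subunits, rose in both (15.4%, against 0.214 and 1.14% of all genes). DESeq2 called 5 (Tau-) and 9 (Tau+) of the 13 higher and limma-voom 7 and 9, with 1 lower in Tau+. Of all 17736 genes DESeq2 called 330 and 611 higher and limma-voom 454 and 817. mt-Nd4 went from 2344 ± 235 to 3366 ± 252 CPM (SD, n = 4) in Tau- and from 2204 ± 241 to 3110 ± 592 in Tau+. Its log2 fold changes were 0.52 ± 0.12 (SE; edgeR adjusted p = 0.0497) and 0.50 ± 0.12 (edgeR adjusted p = 0.0352), and those of mt-Nd3 1.15 ± 0.22 (edgeR adjusted p = 0.0284) and 0.85 ± 0.22 (edgeR adjusted p = 0.0403). Neither gene passed with the covariate for library class, which rests on 1 library, or with GC correction. With the covariate mt-Nd3 turned negative (-0.21 and -0.26 in place of 1.15 and 0.85), while mt-Nd4 was at -0.06 and 0.04 in place of 0.52 and 0.50. With GC correction both stayed positive, mt-Nd3 at 0.78 and 0.46 and mt-Nd4 at 0.21 and 0.19. The summed mitochondrial mRNAs were at 33553 to 41514 CPM in the rRNA-rich libraries, at 23483 to 32492 in the 8 Ch25h+/+ libraries and at 27388 in the rRNA-poor Ch25h-/- library, which lay inside the range of Ch25h+/+.

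Chromosome 19 carries Ch25h (34473778 to 34475164) and 4 of the subunit genes. Nearest is Ndufb8, 10.1 Mb away, at -0.37 ± 0.12 (SE; edgeR adjusted p = 0.101) in Tau- and -0.33 ± 0.12 (edgeR adjusted p = 0.112) in Tau+, while Cox8a, Ndufv1 and Ndufs8 lie at -27.3 to -30.6 Mb, on the other side. The 6 genes that fell are on chromosomes X, 18, 13, 10, 2 and 5, away from Ch25h.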

How the data were processed

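The deposited table holds 1 whole-number count per gene and library with no normalization by the authors, checked on the values. The submitters' processing notes name STAR 2.7, GRCm38 and mm10; the counting program, annotation release and use of strand are not given in the sources used here. Per the labels' protocols, RNA came from a column kit and libraries from a SMARTer mRNA kit.

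Genes passing filterByExpr over the 4 groups (17736) were tested by the two-sided quasi-likelihood F test of edgeR 4.0.16 with TMM factors (R 4.3.3), in 1 fit of 16 libraries with a mean per group. The Benjamini-Hochberg adjustment took in all genes tested, with a threshold of 0.05. The pseudocount for mean log2 levels was 0.5. Alternatives used DESeq2 1.42.0 and limma 3.58.1 (voom with quality weights), other scaling and filters, a covariate for library class (rRNA-rich above 1000 CPM of total counts at CT010467.1), GC-corrected and length-corrected offsets (loess, span 0.5), only the 8 libraries compared, and leaving out each library. Leaving out both libraries that stand apart, and a Ch25h+/+ mean without 1 of them, were chosen after seeing the data. The fit was tested on simulated data. Values with intervals cover the spread between libraries, and totals cover counting error only, since reads carry no molecular identifiers. Lengths, positions and GC content are from GENCODE M21 (GRCm38), from the principal transcript, which all 83 genes had. Exons of 29 of the 83 overlap another annotated gene.

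The members and lists were chosen with earlier results of these data known. Genes named were drawn from those past the threshold, the catalytic and other main subunits, tissue isoforms, and per complex the genes with the largest and smallest ratio of group means, not all of which are described; list genes are named when past the threshold. Atp5f1, Atp5g1, Atp5g2, Cox5b, Cox6c, Ndufa12 and Ndufb8 were chosen after their values were seen, and the values of 1 member are not reported here. Replicates were numbered in record order. A longer form of the NRF1 letters was searched first and gave way to the shorter one printed.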

Additional observations from a re-analysis of the deposited data

Results flagged for a closer look

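In 160 groups of 4 libraries (34 named genes and 6 mean levels in 4 groups), 27 had a library far from the other 3; chance gives about 1 in 20. Ch25h+/+ Tau+ replicate 1 was the high library in 19 of them. Its mean log2(CPM + 0.5) was 6.17 over all 83 genes against a mean of 5.74 in the other 3, 5.88 against 5.42 in complex I, 7.16 against 6.81 in complex II and 6.96 against 6.50 in complex V. Its CPM was 223 against 161 for Atp5g3, 32.6 against 20.4 for Atp5k, 89.1 against 61.4 for Atp5o, 504 against 337 for Cox4i1, 106 against 76.0 for Cox5a and 388 against 270.5 for Cox6a1. For Cox6b1 it was 138 against 92.0, for Cox7a2 98.0 against 63.0, for Cox7a2l 144 against 98.0, for Ndufa1 35.1 against 25.0, for Ndufa4 157.5 against 105, for Ndufs6 37.6 against 27.3, for Ndufs7 133 against 87.2, for Ndufv1 210.2 against 159.5 and for Uqcrc1 337 against 260.4.

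Ch25h-/- Tau+ replicate 1, the rRNA-poor library, was far above the other 3 of its group at Atp5g3 (154 CPM against 125), Atp5k (22.3 against 13.0) and Ndufa2 (41.3 against 29.9). The other 5 cases were Cox6a2 in Ch25h+/+ Tau- replicate 1 (5.22 CPM against 7.10), Ndufv1 in the same library (157 against 177.5), Sdha in Ch25h+/+ Tau- replicate 4 (350.5 against 397), Sdha in Ch25h-/- Tau- replicate 3 (313 against 357) and Cox8b in Ch25h-/- Tau- replicate 2 (1.06 against 0.215).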

How the results depend on the processing

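For Ch25h loss, the 5 calls in Tau- and 5 in Tau+ became 9 and 10 with no filter beyond 1 count, 11 and 12 with DESeq2 (4 and 2 genes without an adjusted p), 19 and 13 with limma-voom, 0 and 0 with the covariate for library class, 0 and 0 with GC-corrected offsets, 17 and 0 with only the 8 libraries compared, and 25 and 13 without both libraries that stand apart. Length-corrected offsets gave 9 and 4. Of these calls, 1 in Tau- was for a higher level with no filter, with length correction and with only the 8 libraries, as were 2 in Tau- and 4 in Tau+ with limma-voom and 3 in each without both libraries. Over all genes in the same fits, the shares called in Tau- and Tau+ were 1.54 and 2.58% with no filter, 7.16 and 9.79% with DESeq2, 7.83 and 10.6% with limma-voom, 7.27 and 0.625% with only the 8 libraries, and 1.67 and 2.38% with length correction, beside 1.03 and 3.55% as reported. The cause of these shifts was not tested. Leaving out 1 library gave 0 to 20 calls in Tau- and 0 to 15 in Tau+, and medians of -0.22 to -0.13 and -0.22 to -0.07, so the sign of both medians stayed negative in all fits run. Over all genes the same fits called 0.0167 to 7.25% in Tau- and 0.602 to 9.42% in Tau+. The calls of single genes kept their direction in every alternative and were lost in 5 to 13 of the 16 fits without 1 library. For tau and the interaction 0 genes passed in any alternative; their medians over the fits without 1 library were -0.10 to 0.07 in Ch25h+/+, -0.02 to 0.07 in Ch25h-/- and -0.051 to 0.12 for the interaction. No paired analysis was possible because replicates were numbered in record order, which pairs no libraries. Depth limits the low genes: Cox8b had 2 counts in its lowest library.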
